A study of Macaca mulatta with 11 samples.

Results

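HOX genes encode homeodomain transcription factors that give cells their position along the body axis and along the limbs, and connective tissue cells keep much of that pattern in culture. In mammals they lie in 4 clusters, HOXA to HOXD, and genes of the same paralog number in different clusters are related copies. Low paralog numbers act near the head and neck and high ones act in the lower trunk and the outer limb. HOX levels were compared here in marrow stromal cultures of different donor age, where the marrow of the youngest donors also came from another kind of collection.

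Members were all probe sets whose platform gene symbol names a HOX gene, and 34 of 22215 probe sets met this rule. Of these, 31 carried 1 symbol and named 24 genes, with 1 gene of the HOXA, 9 of the HOXB, 7 of the HOXC and 7 of the HOXD cluster. The other 3 probe sets were annotated to several genes at once, HOXD genes among them, and their genes are not named separately. For HOXA only HOXA2 had a probe set in the annotation used, so that cluster is not described beyond that gene. The annotation left 2107 probe sets unnamed, and further HOX probe sets may be among them, so the count of 34 is that of the annotation used and not of the array. The macaque annotation of RefSeq (T2T-MMU8v2.0) lists 39 HOX genes and holds all 24 measured ones.

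The 11 arrays each measured 1 culture of rhesus monkey (Macaca mulatta) marrow-derived mesenchymal stem cells, which are adherent stromal cells, at passage 2. The fetal group held 4 arrays. Arrays 1 and 2 came from donors of gestation day 120, and arrays 3 and 4 carry a fetal title but came from newborns, and marrow of all 4 was washed out of long bones. The infant group held 4 arrays, numbered 1 to 4, from monkeys of 6, 6, 3 and 5 months, and the adult group 3 arrays from monkeys of 7, 7 and 8 years. Marrow of both older groups was aspirated, and the labels used here do not name the bone. Age and collection therefore cannot be told apart wherever fetal arrays are compared with the rest. No culture was treated. Nothing in the labels states that each culture of a group had its own animal, and p-values therefore measure the spread between these cultures, and their number limits the precision.

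The arrays had median intensities between 164.9 and 169.6, and log2 values of array pairs correlated between 0.928 and 0.983. Of 9 measured stromal marker genes 8 had a mean above the median of all log2 values, 7.38, and the collagen genes COL1A1 and COL1A2 averaged 14.64 and 14.28, while NT5E averaged 7.01. Adult arrays 1 and 2 read 12.82 and 13.23 for the immunoglobulin light chain gene IGLC1, against at most 9.10 in the others. Adult array 3 read 11.23 for XIST, the RNA of the inactive X chromosome, against at most 8.40 in the others. On the first principal component of all probe sets, 4 arrays lay between -20.5 and -16.1, which were numbers 1 and 2 of the adult and of the infant group, and the other 7 lay between 6.70 and 19.5.

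Most HOX probe sets were dim, in a share near that of all probe sets. A mean above the median of all log2 values was found for 15 of 34 members (44.1%), against 49.4% of all probe sets. A mean above 8 was found for 5079 of 22215 probe sets and for 2 members. These were HOXC6, a gene of the chest region, with a mean of 8.83, and HOXB3, a gene of hindbrain and neck, with 8.42. All 7 HOXC members lay above the median, as did 5 of 13 HOXB and 3 of 13 HOXD members. By paralog group, 3 of 11 members of groups 1 to 4, 5 of 11 of groups 5 to 8 and 7 of 12 of groups 9 to 13 lay above it. The probes were designed for human genes, so a level also depends on the match between the human probes and the monkey RNA. Levels were therefore read only as dim or bright, and a difference at a dim probe set may be understated.

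**Figure D1:**
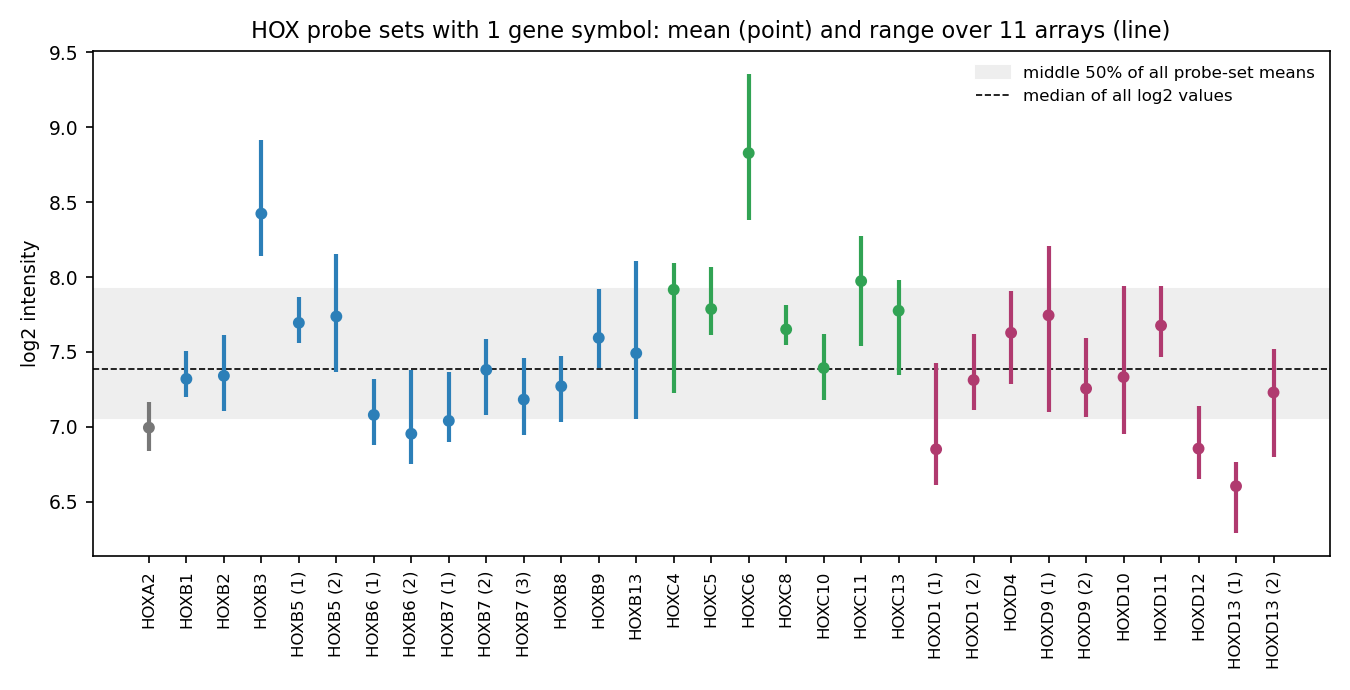
Mean log2 intensity (point) and range over the 11 arrays (line) of the 31 HOX probe sets with 1 gene symbol, ordered by cluster (HOXA grey, HOXB blue, HOXC green, HOXD magenta) and paralog number. The shaded band holds the middle 50% of all probe-set means and the dashed line is the median of all log2 values, 7.38; HOXC6 and HOXB3 are the only means above 8, and numbers in parentheses tell probe sets of 1 gene apart.

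Donor age was the question of the study, and no HOX probe set passed the test between any age groups. The test was limma's moderated test with Benjamini-Hochberg adjustment over all 22215 probe sets, and a probe set was called at an adjusted p under 0.05. Between fetal and adult arrays 0 of 34 members were called, where 0.131% of all probe sets were called. An unadjusted p under 0.05 was reached by 4 members, or 11.8%, against 8.96% of all probe sets. The lowest adjusted p was 0.234, for HOXB6. Members split evenly in direction, with 16 (47.1%) higher in fetal arrays, against 47.5% of all probe sets, 18 lower and a median log2 difference of -0.023 against -0.0085 over all probe sets.

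The intervals show how precisely each difference in measured intensity was estimated. They are given per probe set without adjustment for the number of probe sets, so they do not state what the adjusted test could miss. Between fetal and adult arrays the 95% interval reached a median of 0.27 to either side of the estimate on the log2 scale, and it lay within 1 for all 34 members and within 0.5 for 25 of them. The farthest bound was 0.68. For infant against adult arrays 31 members had an interval within 0.5, and for fetal against infant arrays 31 did.

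The HOXD cluster, whose higher-numbered genes pattern the limb from shoulder or hip to the digits, held the 3 members furthest above their adult level in fetal arrays, HOXD11, HOXD4 and HOXD10. Of its 10 probe sets with 1 symbol, 8 were higher in fetal than in adult arrays, without any passing the test, and over all 13 members the median log2 difference was 0.096. The 3 probe sets with several symbols lay at -0.020, -0.082 and -0.096. Of the 7 HOXD probe sets of groups 9 to 13, 6 were higher in fetal than in adult and 5 higher than in infant arrays. In the HOXB cluster 4 of 13 and in the HOXC cluster 4 of 7 members were higher in fetal than in adult arrays, with medians of -0.030 and 0.018. Whether the clusters differ from each other was not tested.

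HOXD11, which patterns the forearm and the lower leg, read 7.91, 7.94, 7.90 and 7.71 on the log2 scale in fetal arrays 1 to 4. It read 7.55, 7.64, 7.58 and 7.62 in infant and 7.46, 7.62 and 7.50 in adult arrays. All 4 fetal arrays lay above all 7 aspirated ones, with newborn array 4 lowest and 0.068 above the highest infant array. The fetal mean was 7.86 ± 0.10 (SD, n = 4). Infant arrays averaged 7.60 ± 0.04 (SD, n = 4), and the adult average was 7.53 ± 0.08 (SD, n = 3). Fetal arrays were higher than adult arrays by 0.34 (SE 0.09), or 1.26-fold, and than infant arrays by 0.26 (SE 0.09), and neither difference passed the test (limma adjusted p = 0.241 and 0.612). Infant and adult arrays differed by 0.07, with an interval from -0.13 to 0.27. Without both newborn arrays the difference from adults was 0.40 (adjusted p = 0.322).

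HOXD4, a gene of hindbrain and neck, was the other HOXD probe set whose fetal arrays lay above all others. It read 7.81, 7.91, 7.70 and 7.78 in fetal arrays. Infant arrays 1, 3 and 4 and adult array 3 shared exactly 1 value, 7.64, and infant array 2 and adult arrays 1 and 2 read 7.32, 7.29 and 7.54. The gap between the lowest fetal array and that shared value was 0.065. The difference from adults was 0.31 (SE 0.12, adjusted p = 0.415), and it was 0.16 without adult arrays 1 and 2. The difference from infants was 0.24 (SE 0.11, adjusted p = 0.711), and 0.16 without infant array 2.

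Between HOXD4 and HOXD11 along the cluster lie HOXD9 and HOXD10, which act in the upper and lower parts of the limb. HOXD9 had 2 probe sets with 1 symbol. The brighter one read 7.82, 8.20, 7.90 and 7.79 in fetal, 7.43, 7.74, 7.54 and 7.79 in infant and 7.91, 7.10 and 7.97 in adult arrays. Adult array 2 was the lowest of all and the other adult arrays lay among the fetal ones. Fetal arrays exceeded infant arrays by 0.30 (SE 0.17, adjusted p = 0.789) and adult arrays by 0.27 (SE 0.19, adjusted p = 0.730). The dimmer one read 7.56, 7.23, 7.59 and 7.07 in fetal, 7.48, 7.26, 7.18 and 7.19 in infant and 7.11, 7.08 and 7.07 in adult arrays. All infant arrays lay above all adult ones, while fetal array 4 lay at the adult level. Its fetal-to-adult difference was 0.27 (SE 0.13, adjusted p = 0.576), beside 0.27 for the brighter probe set. At the brighter one that value came from adult array 2 alone, at 7.10. Adult arrays 1 and 3, at 7.91 and 7.97, lay to either side of its fetal mean of 7.93. In the other comparisons the 2 probe sets were less alike. The infant-to-adult difference was 0.19 at the dimmer and -0.03 at the brighter one, and the fetal-to-infant difference 0.09 and 0.30.

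HOXD10 read 7.94 and 7.54 in the gestation day 120 arrays and 7.34 and 7.23 in the newborn arrays. Infant arrays read 7.30, 6.98, 7.34 and 7.38 and adult arrays 7.15, 6.95 and 7.50. Fetal array 1 stood highest, and both newborn arrays lay within the range of the aspirated arrays. The fetal-to-adult difference of 0.31 (SE 0.17, adjusted p = 0.644) and the fetal-to-infant difference of 0.26 (SE 0.16, adjusted p = 0.802) did not pass, and the second was 0.12 without fetal array 1, 0.17 without infant array 2 and 0.49 without both newborn arrays. At the ends of the cluster the values were smaller. HOXD12 and HOXD13, which shape hands and feet, differed between fetal and adult arrays by -0.09, and by 0.10 and 0.22 for the 2 probe sets of HOXD13. HOXD1, at the opposite end, differed by 0.01 and -0.07.

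**Figure D2:**
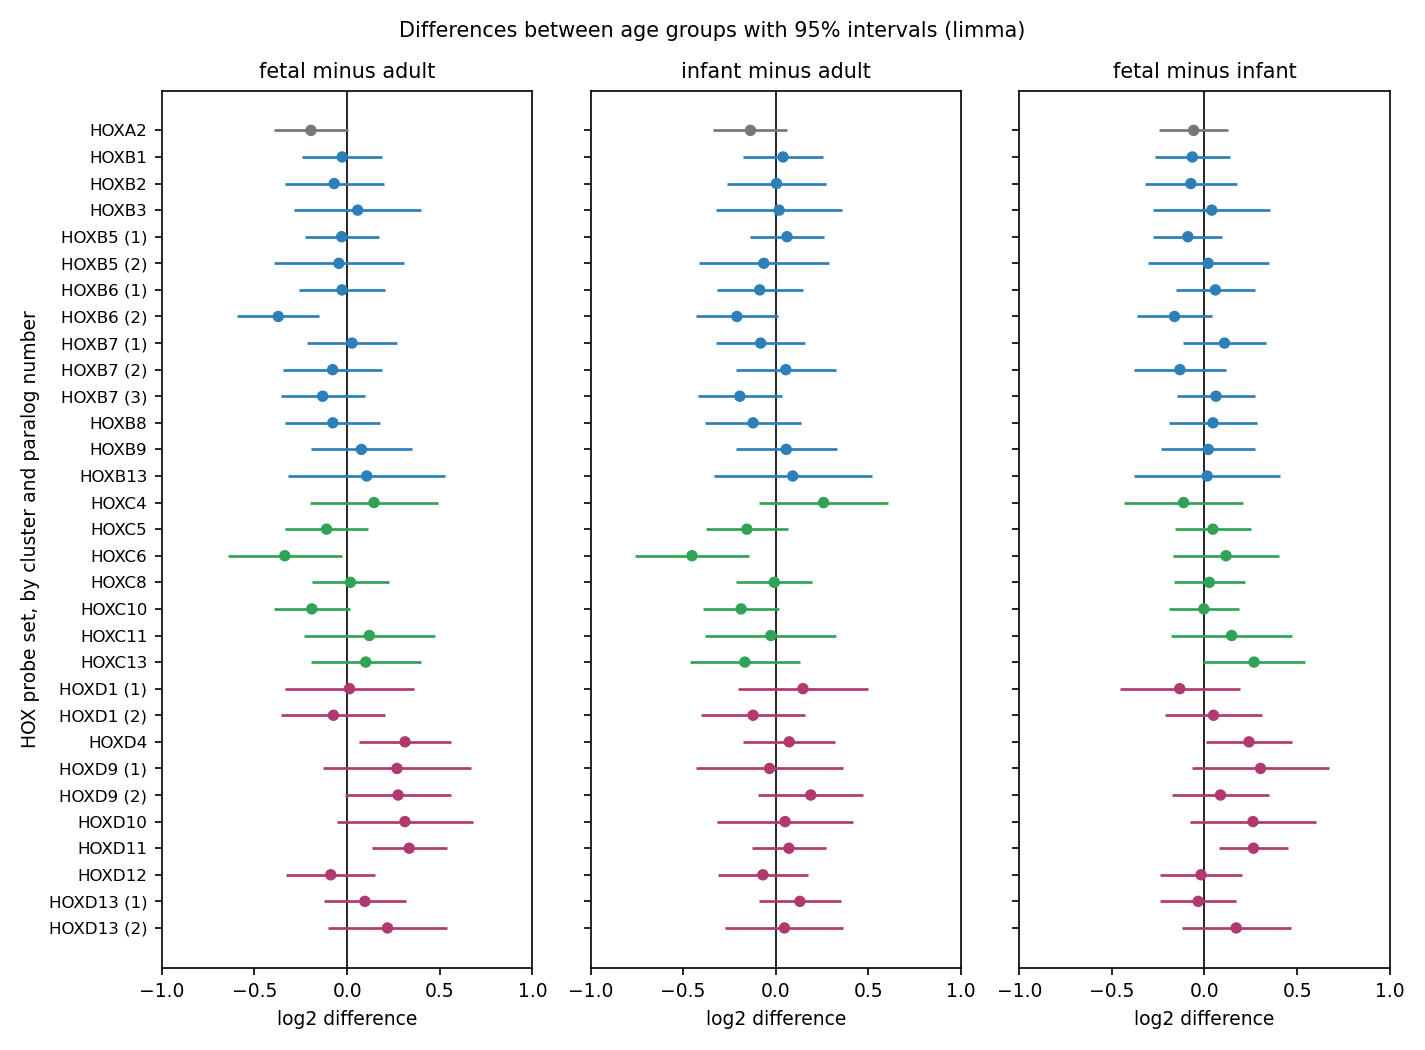
Log2 differences between age groups (point) with 95% intervals from limma (line) for the 31 HOX probe sets with 1 symbol, ordered by cluster and paralog number, with fetal minus adult on the left, infant minus adult in the middle and fetal minus infant on the right. HOXD4, HOXD9, HOXD10 and HOXD11 lie right of 0 on the left panel, between 0.27 and 0.34, whereas HOXB6 (2) and HOXC6 lie left of it, at -0.37 and -0.34.

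HOXB6, a trunk gene, was the member furthest below its adult level in fetal arrays. The dimmer of its 2 probe sets read 6.75, 6.82, 6.78 and 6.82 in fetal, 6.96, 6.89, 7.08 and 6.89 in infant and 7.04, 7.38 and 7.08 in adult arrays. All 4 fetal arrays lay below all others, by at least 0.068, and adult array 2 stood highest. Group means were 6.79 ± 0.03 (SD, n = 4), 6.95 ± 0.09 (SD, n = 4) and 7.16 ± 0.19 (SD, n = 3). The fetal-to-adult difference was -0.37 (SE 0.10, adjusted p = 0.234), and infant arrays differed from adult ones by -0.21 (SE 0.10, adjusted p = 0.810) and fetal from infant ones by -0.16 (SE 0.10, adjusted p = 0.793). The infant-to-adult difference was -0.10 without adult array 2 and -0.12 without adult arrays 1 and 2. The other probe set of the gene held exactly the same value, 7.09, in adult array 1 and all fetal arrays, and its fetal-to-adult difference was -0.03. Both means lay below the median of all probe sets.

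HOXC6 was the brightest member and had the largest difference between infants and adults among the 34 members. It read 9.13, 8.85 and 9.36 in adult, 8.38, 8.79, 8.79 and 8.69 in infant and 8.98, 8.79, 8.79 and 8.55 in fetal arrays. All adult arrays lay above all infant ones, by at least 0.059, and fetal array 1 lay among the adults. The infant-to-adult difference was -0.45 (SE 0.14), or 1.37-fold, with an interval from -0.76 to -0.14, and it did not pass (limma adjusted p = 0.602). It was -0.70 without adult arrays 1 and 2. The fetal-to-adult difference of -0.34 (SE 0.14, adjusted p = 0.505) was -0.215 without adult array 3 and -0.58 without adult arrays 1 and 2.

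Other HOXC members gave smaller differences between infants and adults. HOXC10, a gene of the lower trunk and hind limb, read 7.41, 7.38, 7.26 and 7.32 in infant, 7.62, 7.49 and 7.48 in adult and 7.18, 7.38, 7.40 and 7.39 in fetal arrays. Both younger groups lay below all adult arrays, with differences of -0.19 for infants (SE 0.10, adjusted p = 0.816) and -0.19 for fetal arrays (SE 0.10, adjusted p = 0.600). HOXC4, a gene of the neck, read 8.02, 7.23 and 8.06 in adult, 8.05, 7.96, 8.00 and 8.09 in infant and 7.84, 7.98, 7.86 and 7.98 in fetal arrays. Adult array 2 alone was low, and the infant-to-adult difference of 0.26 (adjusted p = 0.847) was -0.013 without it and 0.40 without adult array 3. HOXC5 read 7.91, 8.07 and 7.68 in adult arrays, while infant arrays 1, 2 and 4 and fetal arrays 1 and 4 shared the value 7.77. Infant array 3 read 7.61 and fetal arrays 2 and 3 read 7.75 and 7.81, and the infant-to-adult difference was -0.16 (adjusted p = 0.857). It was -0.064 without adult array 2, -0.26 without adult array 3 and 0.051 without adult arrays 1 and 2.

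HOXC13, known for its role in hair and nails, divided the infant arrays. It read 7.34 and 7.41 in infant arrays 1 and 2 but 7.90 and 7.87 in infant arrays 3 and 4. Fetal arrays read 7.77, 7.98, 7.93 and 7.91 and adult arrays 7.84, 7.71 and 7.84, so that only infant arrays 1 and 2 stood low. The fetal-to-infant difference was 0.27 (SE 0.13, adjusted p = 0.725), and 0.17 without infant array 1. Infant arrays 1 and 2 were also those that lay with adult arrays 1 and 2 on the first component, but those adult arrays did not share the low HOXC13 values. Without these 4 arrays the difference was 0.01. That value follows from leaving out the 2 low infant arrays, so it says nothing about the first component. HOXB3 showed the same order among infants, with 8.14 and 8.16 in arrays 1 and 2 and 8.91 and 8.44 in arrays 3 and 4. Fetal arrays read 8.62, 8.31, 8.51 and 8.38 for HOXB3 and all 3 adult arrays lay between 8.39 and 8.40, and the age groups overlapped (adjusted p of at least 0.957). HOXC11, a gene of the lower trunk and outer limb, had overlapping groups with means of 8.06, 7.91 and 7.94 in fetal, infant and adult arrays, with fetal arrays at 8.28, 8.02, 7.72 and 8.21, infant arrays at 7.81, 7.84, 8.07 and 7.93 and adult arrays at 8.03, 7.54 and 8.25. HOXC8 differed by at most 0.03 between any age groups.

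**Figure D3:**
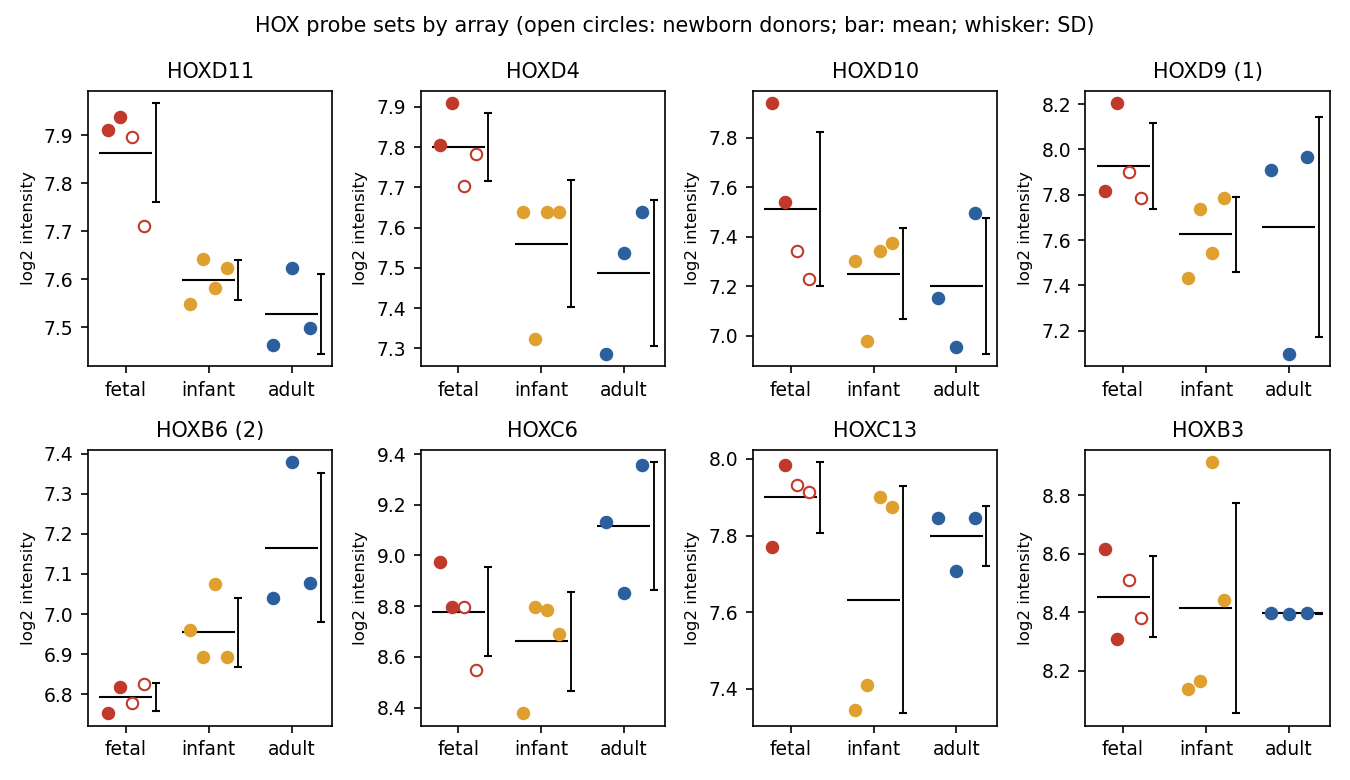
Log2 intensity of 8 HOX probe sets by array, in panels of their own with separate axes that do not start at 0: fetal (red; filled for gestation day 120, open for newborn), infant (orange) and adult (blue), left to right by array number, with the group mean (bar) and SD (whisker). Fetal arrays lie above all others for HOXD11 and HOXD4 and below all others for HOXB6 (2), and infant arrays 1 and 2 lie below the other arrays for HOXC13 and HOXB3.

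HOXA2, which patterns the second pharyngeal arch, and the rest of the HOXB cluster completed the members. HOXA2 read 6.94, 6.87, 6.89 and 6.98 in fetal, 7.01, 7.10, 6.84 and 6.97 in infant and 7.05, 7.13 and 7.17 in adult arrays. Fetal arrays lay below adult arrays without overlap, by -0.20 in the mean (SE 0.09, adjusted p = 0.567). HOXB7, a trunk gene, had 3 probe sets, and the one of middle brightness read 7.12, 7.32 and 7.46 in adult, 7.25, 7.09, 7.14 and 6.95 in infant and 7.20, 7.16, 7.15 and 7.16 in fetal arrays. Infant and adult arrays overlapped and differed by -0.19 (SE 0.11, adjusted p = 0.819), or by -0.11 without adult array 3 and -0.35 without adult arrays 1 and 2. The other 2 probe sets differed by -0.08 and 0.05. HOXB1, HOXB2, HOXB5, HOXB8, HOXB9 and HOXB13 differed between fetal and adult arrays by -0.08 to 0.11 and between infant and adult arrays by -0.12 to 0.09. HOXB13, a gene of the tail end of the body, ranged from 7.05 in infant array 1 to 8.11 in infant array 3, a range of 1.06.

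Counts of arrays that did not overlap were set beside those of all probe sets. For 5 members (14.7%), against 8.08% of all probe sets, all fetal arrays lay on one side of all adult arrays, and these were HOXD4 and HOXD11 higher and HOXA2, HOXB6 and HOXC10 lower in fetal arrays. Infant and adult arrays did not overlap for 3 members (8.82%), against 4.98%. These were the dimmer HOXD9 probe set higher and HOXC6 and HOXC10 lower in infants, while the brighter HOXD9 probe set overlapped. Between infant and adult arrays 0 of 34 members were called (0.018% of all probe sets), the lowest adjusted p was 0.602 and 1 member reached an unadjusted p under 0.05 in limma, or 2.94% against 6.19%. Of the members 16 were higher in infants (47.1%, against 46.1% of all probe sets). Fetal and infant arrays did not overlap for 3 members (8.82%), against 3.34%, and these were HOXD4, HOXD11 and HOXB6. In that comparison 0 members were called (0% of all probe sets), the lowest adjusted p was 0.612 and 2 members reached an unadjusted p under 0.05 in limma, or 5.88% against 6.87%. Of the members 22 were higher in fetal arrays (64.7%, against 51.6% of all probe sets). The comparisons share groups, so their counts are not independent of each other.

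Fetal cultures, from flushed long bones, were then set against the average of both aspirated groups. Again 0 of 34 members were called (0.0585% of all probe sets), with a lowest adjusted p of 0.238 for HOXD11, and 3 members reached an unadjusted p under 0.05 in limma, or 8.82% against 8.66%. The 4 flushed arrays stood apart from all 7 aspirated arrays for 3 members (8.82%), HOXD4, HOXD11 and HOXB6, against 1.03% of all probe sets. HOXD11 was higher by 0.30 (SE 0.08), HOXD4 by 0.28 (SE 0.10, adjusted p = 0.399), and HOXB6 differed by -0.27 (SE 0.09, adjusted p = 0.354). In groups 9 to 13, 10 of 12 members were higher in flushed cultures with a median of 0.16, in groups 5 to 8 it was 3 of 11 with a median of -0.033, and in groups 1 to 4 it was 3 of 11 with a median of -0.015. Of all 34 members 16 (47.1%) were higher, against 48.3% of all probe sets. No aspirated culture came from a fetal or newborn donor and no flushed one from an older donor, so long bone origin and young age cannot be told apart here.

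Single arrays moved these group values. The mean deviation of the 12 members of groups 9 to 13 from their mean over all arrays was between 0.032 and 0.11 in fetal arrays, -0.13, -0.10, 0.045 and 0.020 in infant arrays 1 to 4, and -0.025, -0.18 and 0.044 in adult arrays 1 to 3. Fetal array 4 lay below infant array 3 and adult array 3, so the groups overlapped. For the HOXD cluster the fetal arrays lay at 0.18, 0.075, 0.064 and -0.050, with newborn array 4 among the aspirated arrays, which lay between -0.10 and 0.025. For groups 5 to 8 the adult arrays lay at 0.042, 0.10 and 0.095 and all other arrays between -0.077 and 0.010. Members of groups 1 to 4 gave group means between -0.0017 and 0.0016.

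**Figure D4:**
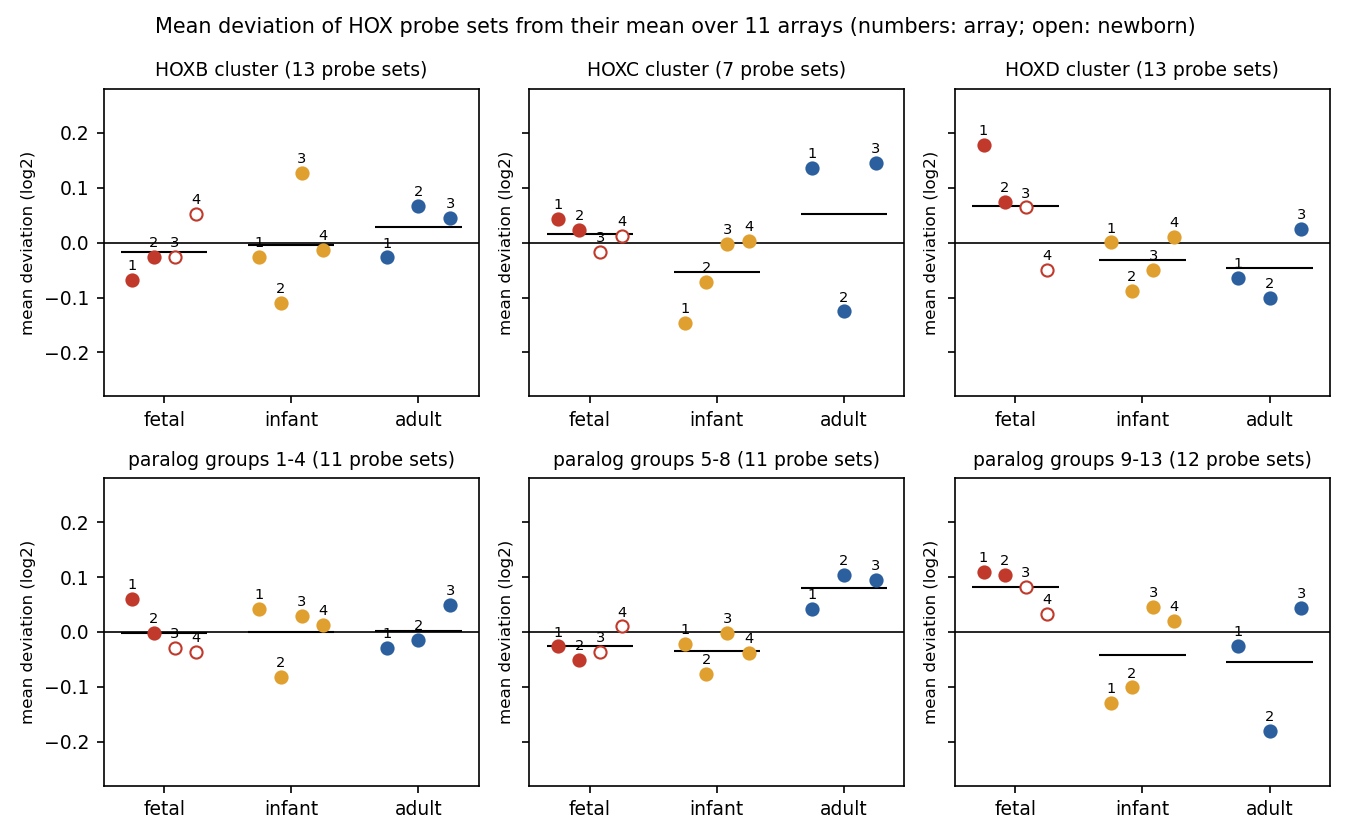
Mean deviation (log2) of the HOX members of a cluster (upper row) or paralog group (lower row) from their own mean over all 11 arrays, 1 point per array with its number (fetal red, open for newborn; infant orange; adult blue) and the group mean as a bar. Fetal arrays lie highest on average for the HOXD cluster and for groups 9 to 13, but newborn array 4 lies among the aspirated arrays for HOXD, and adult arrays lie above all others for groups 5 to 8.

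Within the fetal group, newborn arrays were compared with those of gestation day 120, with 2 arrays each. None of 34 members was called by limma (adjusted p of 1 for all), as for all probe sets (0%), and 1 member, HOXD10, reached an unadjusted p under 0.05 (2.94%, against 1.81%). The 2 stages did not overlap for 9 members (26.5%, against 28.8%), and 15 members were higher in newborns (48.5% of all probe sets were). HOXD10 differed by -0.45 (SE 0.20), and by -0.25 without fetal array 1. HOXD members were lower in newborn arrays in 11 of 13 cases, with a median of -0.12 against -0.0052 over all probe sets. HOXD1, by its brighter probe set, read 7.62 and 7.24 at gestation day 120 and 7.24 and 7.13 in newborns, a difference of -0.25 (SE 0.17) that was -0.059 without fetal array 1 and -0.44 without fetal array 2. HOXC6 differed by -0.21 (SE 0.19), and dropping fetal array 4, 1 or 3 gave -0.091, -0.12 or -0.34. In the other direction, HOXB7 differed by 0.18 and 0.17 at its dimmest and brightest probe sets, and HOXB8, a trunk gene, by 0.15. Leaving out 1 fetal array moved these to between -0.0052 (without array 4) and 0.37 (without array 3) for the dimmest and between 0.023 (without array 1) and 0.32 (without array 2) for the brightest HOXB7 probe set. The latter was 0.028 without array 4 and 0.31 without array 3, and HOXB8 was at 0.066 without array 4 and 0.24 without array 3. The dimmest HOXB7 probe set read 7.36 in fetal array 4 and between 6.97 and 7.02 in the other 3 fetal arrays.

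HOX proteins bind DNA together with cofactors of the TALE class of homeodomain proteins, and of 11 listed genes of that class 8 were measured. No cofactor passed in any comparison of age groups. Between fetal and adult arrays 7 of 8 were lower at their brightest probe sets, with a median of -0.049 against -0.0085 over all probe sets, of which 47.5% were higher. Some of these differences were small. PBX2 was at -0.04, PKNOX1 at -0.01 and TGIF2 at -0.02. Other probe sets gave 0.00 to 0.25 for PBX2, -0.26 to 0.13 for PKNOX1 and 0.02 for TGIF2. Of the 8 cofactors 1 reached an unadjusted p under 0.05 in limma, against 8.96% of all probe sets. This was PBX3, a DNA-binding partner of HOX proteins, at 7.97 in fetal, 8.17 in infant and 8.47 in adult arrays, a fetal-to-adult difference of -0.50 (SE 0.18, adjusted p = 0.375). It read 7.70, 7.84, 8.17 and 8.18 in fetal arrays 1 to 4, so that the newborn arrays lay above those of gestation day 120, and 8.34, 8.66 and 8.42 in adult arrays. Infant arrays read 8.03, 8.00, 8.69 and 7.96, with array 3 above every adult one. MEIS2 and PKNOX2, further TALE genes, differed between fetal and adult arrays by -0.06 and -0.14 (adjusted p = 0.940 and 0.769). Dimmer probe sets of PKNOX2 gave between -0.08 and 0.03. The fetal-to-infant difference of MEIS2 was -0.18 (adjusted p = 0.806) and the infant-to-adult difference of PKNOX2 -0.17 (adjusted p = 0.858).

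Regulators that keep HOX clusters silent or active were described in the same way. Of 17 measured polycomb genes, which hold HOX genes silent, 0 passed in any age comparison. Between fetal and adult arrays 10 were higher in fetal arrays and 7 lower, with a median of 0.019. An unadjusted p under 0.05 in limma was reached by 4 of the 17, all higher in fetal arrays, and by 8.96% of all probe sets. CBX2, a reader of the polycomb mark, was at 7.37 in fetal, 7.38 in infant and 7.09 in adult arrays, with a fetal-to-adult difference of 0.27 (SE 0.11, adjusted p = 0.437). The others of these 4 were RBBP7 at 0.42 (adjusted p = 0.453), CBX6 at 0.38 (adjusted p = 0.437) and PHF1 at 0.22 (adjusted p = 0.483). Of these, RBBP7 and CBX6 were chosen after their values were seen. CBX6 and PHF1 each had a dimmer probe set, with fetal-to-adult differences of 0.02 and 0.32. Between fetal and infant arrays PHF1 differed by 0.32 (SE 0.08, adjusted p = 0.497) and PCGF2 by 0.40 (SE 0.14, adjusted p = 0.615), and PCGF2 differed between fetal and adult arrays by 0.09 (adjusted p = 0.914). Of 12 trithorax and MLL activator genes 0 passed and 0 reached an unadjusted p under 0.05 in any comparison of age groups. At its brightest probe set KMT2A, the MLL methyltransferase, differed by 0.25 between fetal and adult arrays (SE 0.16, adjusted p = 0.721). It differed there by 0.31 between fetal and infant arrays (adjusted p = 0.737). The other KMT2A probe sets gave fetal-to-adult differences between -0.12 and 0.13. KDM6B and DOT1L, histone-modifying enzymes, differed by -0.02 and -0.18 between fetal and adult arrays and by -0.16 and -0.26 between infant and adult arrays (adjusted p = 0.857 and 0.817).

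Of 19 measured genes of retinoic acid signalling and other inputs to HOX genes, 0 passed between age groups. Retinoic acid switches on HOX genes in order along the body axis. CRABP2, a retinoic acid carrier, differed between fetal and adult arrays by 0.30 (SE 0.14, adjusted p = 0.565), ALDH1A3, which makes retinoic acid, by 0.23 (adjusted p = 0.645), and its receptor RARG by 0.19 (adjusted p = 0.776). ALDH1A3 differed between infant and adult arrays by 0.33 (adjusted p = 0.719), and RARG between fetal and infant arrays by 0.29 (adjusted p = 0.725). These RARG values are from its brightest probe set, and its others differed between fetal and adult arrays by 0.01 and -0.22. Of 20 measured homeobox and T-box genes of limb, girdle and face, 0 passed, and 2 reached an unadjusted p under 0.05 in limma between fetal and adult arrays. TBX2, a limb T-box gene, was higher in fetal arrays by 0.31 (SE 0.14, adjusted p = 0.534) at its brightest probe set. Its remaining 3 gave between -0.07 and 0.03. EN1, which marks the lower side of the limb bud, differed by -0.24 (SE 0.09, adjusted p = 0.440), and LMX1B, which marks the upper side, by -0.06 (adjusted p = 0.909) and between infant and adult arrays by -0.24 (adjusted p = 0.767). The share of fetal-to-adult differences at an unadjusted p under 0.05 over all probe sets was 8.96%.

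Markers of other cell types were read on the same arrays, as means over each list. The list of 7 measured neural and glial genes averaged 8.03 to 8.44 in fetal arrays against 7.97 to 8.06 in infant and 7.93 to 8.06 in adult arrays, and 5 of its genes lay above the median, all but GFAP and S100B. Only 3 of the 7 were higher in fetal than in adult arrays and the median difference was -0.025. GAP43 was at 1.07, TUBB3 at 0.55 and the other 5 between -0.055 and 0.023, each at its brightest probe set. Dimmer probe sets of GAP43 gave 0.48 and -0.05, and that of TUBB3 gave 0.52. At its brightest probe set GAP43 read 9.72 and 8.72 in the gestation day 120 arrays. The newborn arrays read 8.02 and 7.97, near the infant mean of 7.95. The 5 epithelial genes averaged 7.46 to 7.82, 7.23 to 7.65 and 7.20 to 7.38, with EPCAM, KRT19 and CDH1 not above the median, and the median fetal-to-adult difference was 0.020. KRT18 averaged 10.03 in fetal, 8.96 in infant and 8.34 in adult arrays. The infant arrays were divided, with 9.89 and 9.86 in arrays 1 and 2, within the fetal range of 9.52 to 10.79. Infant arrays 3 and 4 read 7.97 and 8.10, below the adult mean. KRT8, EPCAM, KRT19 and CDH1 differed between fetal and adult arrays by 0.12, 0.02, -0.02 and -0.13. The 7 endothelial genes averaged 7.25 to 7.33 in fetal, 7.26 to 7.45 in infant and 7.38 to 7.42 in adult arrays, with CDH5, VWF, KDR, ERG and EMCN not above the median. Of the 7, 2 were higher and 5 lower in fetal than in adult arrays. PECAM1 differed by -0.43 at its brightest probe set (limma adjusted p = 0.279) and by -0.20 and -0.08 at its others. The 10 macrophage and leukocyte genes averaged 7.65 to 7.83, 7.58 to 7.77 and 7.70 to 7.92, and the 8 blood progenitor genes 7.32 to 7.40, 7.32 to 7.40 and 7.30 to 7.52. These means hide single genes. FCER1G differed between fetal and adult arrays by -0.81 (limma adjusted p = 0.166), while 5 of the 10 genes were higher and 5 lower. Between infant and adult arrays ELANE differed by -0.58 (adjusted p = 0.465) and CEBPE by 0.25 (adjusted p = 0.690), with 3 of the 8 genes higher and 5 lower. List means of erythroid genes lay between 7.45 and 7.65, of B and plasma cell genes between 7.25 and 7.54 and of skeletal muscle genes between 7.49 and 7.69. IGLC1, high in adult arrays 1 and 2, was not on the B and plasma cell list. JCHAIN, which was, read 7.05, 7.49 and 6.97 in adult arrays 1 to 3. It differed from adults by -0.40 in fetal and -0.41 in infant arrays (limma adjusted p = 0.324 and 0.603). Of the 5 listed genes, 1 was higher in fetal and 3 were higher in infant than in adult arrays. None of these genes was called in a comparison of age groups, and their part in the HOX values was not tested. In these bulk samples, fewer cells of a type and less RNA per cell cannot be told apart.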

How the data were processed

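RNA of each of the 11 cultures went on 1 array after one-cycle target labelling. The deposited values are intensity per probe set, computed by the authors; per the submitters' processing notes the tool was RMA, with a version not given in the sources used here. RMA corrects background, normalises arrays and summarises probes. Deposited values started at 75.3 and were not logged, so their log2 was computed. Probe sets were named from platform annotation (19065 with 1 symbol, 1043 with several, 2107 unnamed here).

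Group means were estimated together from all arrays, with no block, by limma 3.58.1 (R 4.3.3), and tests were two-sided. For newborn against gestation day 120, the fetal group was split into its stages in a second fit. Adjusted p-values are limma's, over all probe sets. The fits were tested on simulated data with planted shifts larger than any difference of a HOX member. That test does not show whether differences of the size seen here would be called. Deviations of infant and adult arrays with the same title number correlated at 0.145, 0.131 and 0.204, which passed the check for pairs set at above 0.1. Differently numbered pairs were also above 0.1 (0.258 for infant 2 with adult 1, 0.299 for infant 4 with adult 3, 0.107 for infant 1 with adult 2), so the correlation was not particular to the number. Other pairs of groups did not pass, though single pairs exceeded 0.1. Fetal and infant arrays correlated at 0.12, 0.008, 0.041 and 0.275 for numbers 1 to 4. Fetal array 4 correlated with adult array 3 at 0.168. No source states that a number marks a shared origin.

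Values per array are given for up to 6 HOX probe sets of smallest p per pairwise comparison of age groups and the 6 brightest, and for newborn against gestation day 120 differences of the 3 of smallest p in each direction. Per regulator list, the 3 genes of smallest p are named, each by its brightest probe set. Members, lists and rules were chosen with earlier results of these data known. Other HOX probe sets are given by differences and single values. Leaving out each array, other normalisation, filter, moderation and probe set choices, a replicate block and, chosen after the data were seen, leaving out adult arrays 1 and 2, alone or with infant arrays 1 and 2, were tried.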

Additional observations from a re-analysis of the deposited data

Results flagged for a closer look

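In 8 of 67 groups of 4 arrays of HOX members, 1 array stood apart from the other 3 by more of the group's range than the limit for 4 values, 0.829 of the range. Chance gives about 1 in 20 for independent values from a normal distribution. That rate does not hold where arrays share exactly the same value, so no excess is read from this count. In the fetal group the dimmest HOXB7 probe set read 7.36 in array 4, HOXB2 7.11 in array 1, against 7.34 to 7.37 in the other 3, HOXC10 7.18 in array 1, against 7.38 to 7.40, and HOXD12 6.65 in array 4, against 6.87 to 6.91. In the infant group HOXD4 read 7.32 in array 2, HOXC5 7.61 in array 3, HOXB1 7.39 in array 4 and HOXC8 7.54 in array 1. In each of these infant cases the other 3 arrays held exactly the same value, at 7.64, 7.77, 7.34 and 7.67, so the gap was the whole range. These flags fell on different arrays, 2 of them on fetal array 1 and 2 on fetal array 4.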

How the results depend on the processing

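No HOX probe set was called in any of 103 combinations of comparison and setting, and the lowest adjusted p among them was 0.0964. Counts at an unadjusted p under 0.05 depended more on the setting. Leaving out 1 array at a time, they ranged from 2 to 5 between fetal and adult, 1 to 4 between infant and adult, 1 to 3 between fetal and infant, 3 to 5 between flushed and aspirated and 0 to 2 between newborn and gestation day 120 arrays. Arrays that moved a count included adult array 1 (without it 4 for infant against adult arrays and 2 for fetal against adult ones), adult array 3 (4 for infant against adult arrays, 5 between flushed and aspirated) and fetal array 4 (5 between flushed and aspirated, 0 between newborn and gestation day 120). Between infant and adult arrays the count was 2 with an intensity trend and robust moderation, and 3 without adult arrays 1 and 2, with or without infant arrays 1 and 2. Between fetal and infant arrays it was 1 with quantile normalisation, 1 with the trend, 1 without those 4 arrays and 1 of 15 among probe sets above the median, where that of newborn against gestation day 120 was 0. The cause of these shifts was not tested.

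The median over HOX members stayed near 0. Among the 15 members above the median it was 0.077 between fetal and adult and 0.048 between flushed and aspirated arrays, and without both newborn arrays it was 0.020 between fetal and adult arrays. Leaving out 1 array, it ranged from -0.023 to 0.024 between fetal and adult and from -0.061 to 0.016 between infant and adult arrays. With the replicate block the counts at an unadjusted p under 0.05 were 4, 1, 2 and 4 for fetal against adult, infant against adult, fetal against infant and flushed against aspirated arrays, and the block changed no call. For infant against adult arrays HOXC4 ranged from -0.013 without adult array 2 to 0.401 without adult array 3, and was -0.029 without adult arrays 1 and 2 and -0.0081 without these and infant arrays 1 and 2, and HOXC5 to 0.051 and 0.014 in the last 2 settings. For newborn arrays the dimmest HOXB7 probe set ranged from -0.0052 without fetal array 4 to 0.37 without fetal array 3. Signs over the alternatives were followed only for the HOX differences of smallest p in the age-group and newborn comparisons. Their other values, 444 in all, kept their sign and stayed uncalled. Differences of other HOX probe sets and of the listed regulator and marker genes were not followed in this way. Signal near the median of all probe sets limits what the dim members can show.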

Other observations

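Many HOX values were exactly equal between arrays. At least 2 arrays held the same value for 22 of 34 members (64.7%), against 58.5% of all probe sets, and 4 or more arrays did so for 5 members (14.7%), against 8.89%. These 5 were the dimmer HOXB5 and the brighter HOXB6 probe set, HOXC5, HOXC8 and HOXD4. The HOXB5 value 7.67 was shared by infant arrays 1 and 4 and fetal arrays 1 and 3, and the HOXC8 value 7.67 by adult array 3 and infant arrays 2 to 4. For HOXD4 the shared value was also the highest among aspirated arrays, so its separation from the fetal arrays rests on the gap to that value. The median SD within groups was 0.17 for HOX members and 0.17 for all probe sets.

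Of 6 HOX genes with more than 1 probe set, 4 had all their probe sets on the same side between fetal and adult arrays, and HOXB7 and HOXD1 did not. HOXB5 and HOXD13 were on the same side with differences of -0.03 and -0.04, and of 0.10 and 0.22.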
